A study of Mus musculus with 6 samples.

Results

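The 10 genes Klrk1, Klrb1c, Klrd1, Ncr1, Gzma, Gzmb, Prf1, Nkg7, Tyrobp and Hcst, which natural killer (NK) cells and cytotoxic T cells are known for, were followed in leukemia stem cells (LSCs). These came from WT and from Piezo1 conditional knockout (Piezo1cKO) leukemia. These 10 genes of the 55367 in the deposited table were chosen by symbol and for their function. Earlier differences between the groups of these same libraries were known at that time. Their values between the groups are therefore given as a description, without printed p-values. Where calls at adjusted p under 0.05 are stated for them, these are part of that description and not a test of the choice. All 10 had a row with a value. LSCs were sorted from the bone marrow of mice with MLL-AF9 leukemia, 3 libraries from Piezo1cKO leukemia and 3 from WT leukemia. The donor mice were 8 to 10 weeks old. In Piezo1cKO donors both Piezo1 alleles were floxed and the interferon-inducible Mx1-cre deleted them after pIpC injection, whereas WT donors were floxed littermates without the Cre that received the same pIpC. In both groups lineage-depleted marrow cells were transduced with a retrovirus that carries the MLL-AF9 fusion and YFP, and were then transplanted. The sorted gate was Lin- Sca-1- c-Kit+ CD16/32hi CD34+ YFP+. The Cre is not restricted to a blood lineage, and the recipients keep blood cells of their own that the YFP gate is meant to leave out.

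NK cells read their targets through pairs of a receptor and an adaptor. Klrk1 (NKG2D) and Ncr1 (NKp46) are activating receptors, Klrb1c is the NK1.1 antigen, and Klrd1 (CD94) forms heterodimers with NKG2 chains. Tyrobp (DAP12) carries an ITAM that recruits Syk and Zap70, and Hcst (DAP10) carries a YINM motif that recruits phosphatidylinositol 3-kinase. After recognition, cytotoxic cells release granules that hold the serine proteases granzyme A (Gzma) and granzyme B (Gzmb) and the pore-forming perforin (Prf1), and Nkg7 is a membrane protein of these granules. Tyrobp, Hcst and Nkg7 are not restricted to lymphocytes, and Tyrobp serves many receptors of myeloid cells.

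The deposited values were log2 values that had been shrunk toward the mean of each gene, which makes changes of low genes small. Whole reads were therefore worked back from them, and reads are given first below. The libraries held 14111950 to 15483371 recovered reads. Piezo1 itself had 104, 92 and 113 reads in the WT libraries and 35, 58 and 45 in the Piezo1cKO libraries, 45.9% of the WT mean after normalization (deposited log2 difference -0.29 ± 0.04 SE, n = 3 per group, limma, adjusted p = 5.8e-06). What the remaining Piezo1 reads came from was not tested. WT 1, WT 2 and Piezo1cKO 2 stood apart in that they held 1361, 1722 and 593 genes whose only read in the series lay in that library, against 176 to 216 in the other libraries. Kit and Cd34, both part of the sorting gate, were read in all libraries at 2466 reads or more. The labels do not tie the libraries to separate mice, so p-values measure the spread between these samples only. In sorted bulk samples a change in the number of cells of a type and a change in RNA per cell cannot be told apart.

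The 10 genes did not move as a block. Klrk1, Klrb1c, Gzma and Gzmb had several times more reads in Piezo1cKO LSCs, and Nkg7 had fewer. Tyrobp and Hcst stood at 107.6% and 125.3% of their WT means, and Klrd1, Ncr1 and Prf1 had at most 2 reads in any library.

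**Figure D1:**
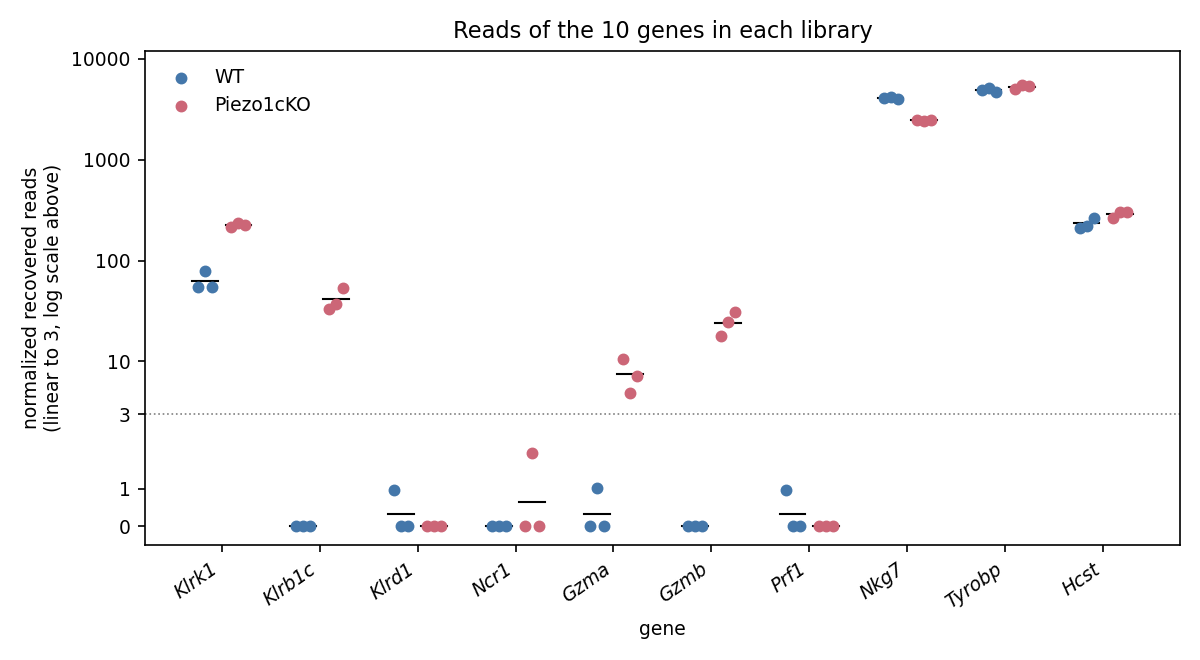
Normalized recovered reads (vertical axis, linear to 3 and logarithmic above) of each gene in the 3 WT and 3 Piezo1cKO libraries, with points for libraries, short bars for group means and a dotted line at 3 reads. Klrk1, Klrb1c, Gzma and Gzmb are higher in every Piezo1cKO library than in any WT library, Nkg7 is lower in every one, and Klrd1, Ncr1 and Prf1 stay under the line.

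Among the receptors, Klrk1 had 56, 78 and 57 reads in the WT libraries and 206, 244 and 221 in the Piezo1cKO libraries. The groups did not overlap, and every Piezo1cKO library lay above all WT libraries. After normalization the means were 62.6 ± 13.9 and 226 ± 11.4 reads (SD, n = 3 per group), a ratio of 3.61. On the deposited scale the difference was 0.68 ± 0.044 (SE) log2 units, and on recovered reads it was 1.87 ± 0.14. Klrk1 lies on chr6:129610323-129623864 on the minus strand (GRCm38).

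Klrb1c had no read in any WT library and 32, 38 and 52 reads in the Piezo1cKO libraries. With 3 reads per library as the most that a count of 0 allows, its Piezo1cKO mean of 41.1 ± 10.4 normalized reads (SD, n = 3) was at least 13.98-fold higher than WT. The deposited difference was only 0.31 ± 0.031 (SE) log2 units. Klrb1c lies on chr6:128778485-128789215 on the minus strand, where the readthrough gene Gm44511 overlaps it on the same strand. Gm44511 was listed at 0 in all libraries, and how reads that fit both genes were assigned is not given in the sources used here.

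The other receptors were near absent in both groups. Klrd1, whose gene ends 11548 bases from Klrk1 on chr6:129591782-129598775, had 1 read in WT 1 and none elsewhere. Ncr1, on chr7:4337724-4345164 and a defining marker of NK cells, had 2 reads in Piezo1cKO 2 and none elsewhere. No fold is given for either gene, since both groups were at or under 3 reads per library, and neither passed the filter on low values.

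Among the granule genes, Gzmb had no WT read and 17, 25 and 30 Piezo1cKO reads. The groups did not overlap, and the Piezo1cKO mean of 24.2 ± 6.39 normalized reads (SD, n = 3) was at least 8.23-fold higher than WT. The deposited difference was 0.19 ± 0.024 (SE) log2 units. Gzma had 0, 1 and 0 WT reads and 10, 5 and 7 Piezo1cKO reads. With totals of 1 and 22 reads the ratio was 22.7, with a 95% counting interval of 3.67 to 937 that covers counting error only. Its deposited difference was 0.06 ± 0.013 (SE) log2 units. The genes lie apart, Gzma on chr13:113093825-113100981 and Gzmb on chr14:56258838-56262260, both on the minus strand.

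Prf1, the pore former through which granzymes reach a target cell, had 1 read in WT 1 and none in any Piezo1cKO library (chr10:61297833-61304680). Nkg7 went the other way from the granzymes. It had 4246, 4134 and 4147 reads in the WT libraries and 2380, 2497 and 2412 in the Piezo1cKO libraries. The groups were far apart relative to their spread, at 4094 ± 93.8 and 2458 ± 26.3 normalized reads (SD, n = 3 per group), so that Piezo1cKO LSCs held 60.04% of the WT level. The deposited difference was -0.53 ± 0.025 (SE) log2 units, and Nkg7 lies on chr7:43437073-43438249 on the plus strand.

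The adaptors changed least. Tyrobp had 5088, 5031 and 4870 reads in the WT libraries and 4819, 5597 and 5236 in the Piezo1cKO libraries. Its groups overlapped after normalization, at 4900 ± 199 and 5272 ± 216 reads (SD, n = 3 per group), a ratio of 1.08. Its deposited difference of 0.08 ± 0.027 (SE) log2 units passed adjusted p under 0.05, a call that was lost without WT 3, without Piezo1cKO 2 or without Piezo1cKO 3, at differences of 0.05, 0.06 and 0.07. Hcst had 218, 220 and 275 WT reads and 255, 312 and 299 Piezo1cKO reads. After normalization its highest WT library, at 264.58 reads, lay just under its lowest Piezo1cKO library, at 266.37, and the ratio of the means was 1.25 (deposited difference 0.16 ± 0.044 SE). Tyrobp (chr7:30413760-30417585, plus strand) and Hcst (chr7:30417712-30419854, minus strand) lie tail to tail with 127 bases between them. The ratio of Tyrobp to Hcst reads ran from 17.71 to 23.34 over the WT libraries and from 17.51 to 18.9 over the Piezo1cKO libraries.

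**Figure D2:**
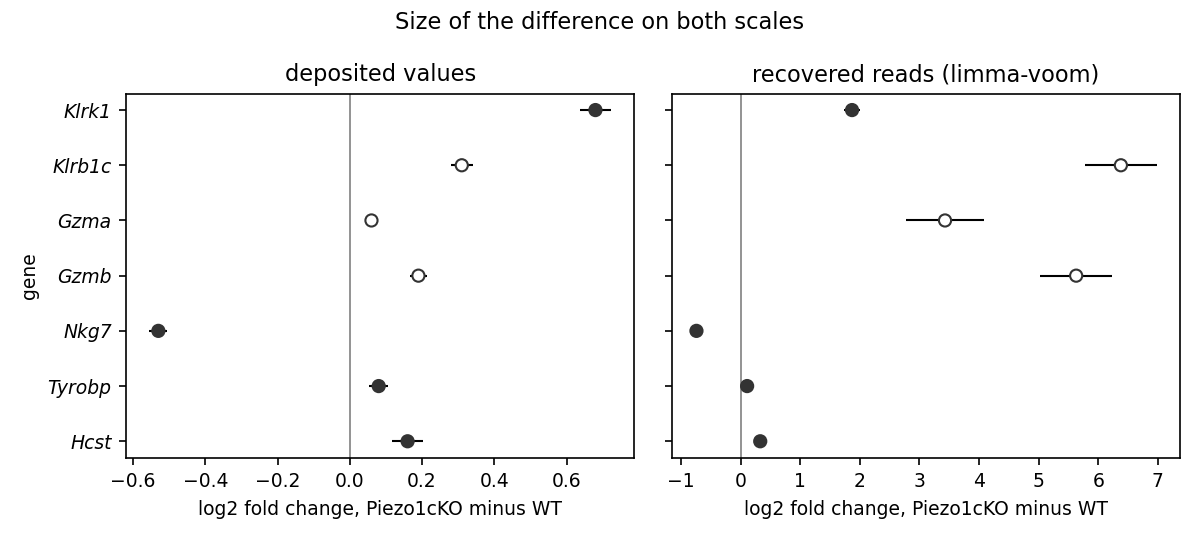
Log2 fold change (horizontal axes, Piezo1cKO minus WT, bars show SE, n = 3 per group) of the 7 genes that passed the filter, on the deposited scale (left) and on recovered reads (right). Open points had at most 3 WT reads in total, and their fitted size on reads depends on the prior count; the 4 genes with positive values above 1 on the right all lie under 1 on the left, and Nkg7 is negative on both.

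All 10 genes can be accounted for as follows. Of the 7 that passed the filter on low values, 6 were higher and 1 was lower at adjusted p under 0.05 (limma). Among all 16746 genes tested 63.0% were called, 31.6% higher and 31.4% lower, so most genes of the table passed this test. Klrb1c, Gzma and Gzmb passed the filter through the Piezo1cKO libraries alone, and had to differ for that reason. None of the 7 also had a difference over 1 log2 unit on the deposited scale, which 0.818% of all tested genes had. On recovered reads 4 were past both thresholds as higher and none as lower, Nkg7 standing at -0.74 ± 0.03 (SE) log2 units, against 12.7% and 12.2% of 17352 genes. The groups did not overlap for 6 of the 7, and for 66.6% of all tested genes. The median difference of the 7 was 0.16 log2 units, beside 0 over all genes tested. Without WT 1, WT 2 and Piezo1cKO 2, a fit chosen after the data were seen that left 1 WT library, Klrk1 stood at 0.71 and Nkg7 at -0.49. All 7 kept their direction in it, which for Klrb1c, Gzma and Gzmb was fixed in advance.

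Per length, the order of levels put the adaptors and Nkg7 far above the rest. In TPM, a level that divides the recovered reads by exon length and by the library total, Tyrobp stood at 1614 ± 61.6 in WT and 1762 ± 62.3 in Piezo1cKO LSCs (SD, n = 3 per group). Nkg7 followed at 984 ± 20.5 and 599.5 ± 9.84 TPM, and Hcst at 70.8 ± 8.63 and 89.99 ± 6.25 TPM. Klrk1 stood at 1.91 ± 0.419 TPM in WT and 7.01 ± 0.316 TPM in Piezo1cKO LSCs. In Piezo1cKO LSCs Gzmb (3.76 ± 0.977 TPM) and Klrb1c (3.09 ± 0.772 TPM) did not differ beyond their spread, and Gzma came next at 1.66 ± 0.632 TPM. The risen receptors and granzymes thus remained at a small share of the level of the adaptor transcripts.

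Within the Piezo1cKO libraries the 4 risen genes were not all highest in the same library. Klrb1c and Gzmb were highest in Piezo1cKO 3, Klrk1 in Piezo1cKO 2 and Gzma in Piezo1cKO 1. Klrk1 values lay close together, at 215.19, 237.84 and 224.87 normalized reads, and Gzma had only 10.45, 4.87 and 7.12. Nothing is therefore read from the order of Klrk1 and Gzma, which was not tested against counting error. The ratio of Klrb1c to Gzmb reads was 1.88, 1.52 and 1.73 in the 3 libraries. The ratio of Klrk1 to Klrb1c reads was 6.44, 6.42 and 4.25, and that of Gzmb to Gzma was 1.7, 5 and 4.29 on few Gzma reads. The WT libraries held Klrk1 reads while Klrb1c, Gzmb and Ncr1 had none there. The ratio of Nkg7 to Tyrobp reads, 2 genes with 2380 or more reads in every library, was 0.822 to 0.852 in WT and 0.446 to 0.494 in Piezo1cKO libraries.

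The promoters of the 4 risen genes are shown because these genes were read together in Piezo1cKO LSCs although they lie on 3 chromosomes. Each window runs from 250 bases before to 50 bases after a RefSeq start site (GRCm38.p6), is written 5′ to 3′ on the strand of the gene, and has matches to the RUNX motif TGTGGT, or to its reverse complement ACCACA, in capitals.
Klrk1: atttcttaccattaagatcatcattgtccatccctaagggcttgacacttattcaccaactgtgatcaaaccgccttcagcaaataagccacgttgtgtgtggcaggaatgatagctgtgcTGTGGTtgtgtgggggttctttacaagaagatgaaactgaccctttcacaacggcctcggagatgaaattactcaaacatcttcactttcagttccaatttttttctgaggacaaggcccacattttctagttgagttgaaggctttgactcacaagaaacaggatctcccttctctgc
Klrb1c: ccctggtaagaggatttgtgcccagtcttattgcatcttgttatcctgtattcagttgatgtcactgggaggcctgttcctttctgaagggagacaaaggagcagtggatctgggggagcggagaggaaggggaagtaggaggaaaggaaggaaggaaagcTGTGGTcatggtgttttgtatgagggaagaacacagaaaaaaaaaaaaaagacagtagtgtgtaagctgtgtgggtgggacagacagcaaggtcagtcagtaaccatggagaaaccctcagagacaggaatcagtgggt
Gzma: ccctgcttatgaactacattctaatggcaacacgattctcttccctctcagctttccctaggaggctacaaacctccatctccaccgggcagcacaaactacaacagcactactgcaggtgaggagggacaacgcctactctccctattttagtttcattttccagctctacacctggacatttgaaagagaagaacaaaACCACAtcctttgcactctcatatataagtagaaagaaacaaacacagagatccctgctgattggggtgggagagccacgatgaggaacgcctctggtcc
Gzmb: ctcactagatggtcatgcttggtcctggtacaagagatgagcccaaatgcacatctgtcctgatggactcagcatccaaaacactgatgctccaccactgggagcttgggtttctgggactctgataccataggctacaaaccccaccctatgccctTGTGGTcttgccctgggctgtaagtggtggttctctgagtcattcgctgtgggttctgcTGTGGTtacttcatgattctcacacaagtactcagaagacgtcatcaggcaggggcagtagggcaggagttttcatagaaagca

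The windows are chr6:129623815-129624114 (Klrk1), chr6:128788592-128788891 (Klrb1c), chr13:113100932-113101231 (Gzma) and chr14:56262285-56262584 (Gzmb), all on the minus strand. The RefSeq start of Klrb1c lies 574 bases inside the gene as annotated by GENCODE. RUNX factors bind this motif and are known as regulators of cytotoxic genes. Klrk1, Klrb1c and Gzma each held 1 match and Gzmb held 2. Ncr1, Prf1 and Nkg7, which were not among the 4, held it too, so that it was in 7 of the 8 genes with a window, beside 16.8% of 32851 promoter windows. Hcst had no RUNX match, and no window was given for Klrd1 and Tyrobp. The T-box motif AGGTGT, found in 13.7% of all windows, was in those of Gzma, Prf1 and Nkg7. The ETS motif AGGAAG, found in 35.4%, was in those of Klrb1c, Prf1, Nkg7 and Hcst, and the GATA motif AGATAA, found in 11.2%, was in none of the 8. Both strands were searched for each motif, and a match is a description of letters, not of binding.

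Of 22 other genes with reads within 50 kb of the 10 genes, 10 were tested, of which 1 rose, 5 fell and 4 were not called. Over all tested genes 63.0% were called, and nothing particular to the neighbours is read from these counts. Klrb1b, 24491 bases from Klrb1c, had no WT reads and 3, 4 and 2 Piezo1cKO reads. Klrc3, 15200 bases from Klrk1, had 1 read in WT 2 and none elsewhere. Near Nkg7, Cldnd2 fell (37, 42 and 38 against 13, 5 and 16 reads, deposited difference -0.18 ± 0.031 SE, limma adjusted p = 5.37e-05), and Vsig10l rose (77, 110 and 107 against 223, 256 and 215 reads, 0.52 ± 0.046, adjusted p = 2.11e-08). Beside the adaptor pair, Nfkbid, which codes for an atypical IκB protein, fell by 0.21 ± 0.04 log2 units (limma adjusted p = 0.000213). The other genes that fell had few reads and none in the Piezo1cKO libraries: Aplp1 near the adaptor pair with 1, 7 and 9 WT reads, Gp6 near Ncr1 with 12, 16 and 11, and Pald1 near Prf1 with 6, 7 and 5. They passed the filter through the WT libraries alone, and had to fall for that reason.

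For the 14 gene lists that follow, the counts of calls stand beside the 63.0% of all tested genes that were called; the share called ran from 28.6% to 87.5% of the tested genes of a list, and nothing particular to a list is read from it. Most lists also held 1 to 3 called genes with at most 3 reads in every library of 1 group. Such genes passed the filter through the other group and so had to differ, also where this is not repeated below. The rest of the NK receptor repertoire was mostly unread. Of 22 other NK receptor genes, 13 had at most 3 reads in every library, and the Ly49 genes Klra1, Klra3 and Klra4 were listed at 0. Of the 6 tested, 4 rose and 1 fell, but 3 of these 5 calls (Klra5, Klra9 and Cd96) were genes at 0 in every library of 1 group that passed the filter through the other, and so had to differ. Klrb1f, a C-type lectin-like receptor of the same family as Klrb1c, had 727, 677 and 692 WT reads and 1134, 1113 and 1048 Piezo1cKO reads (deposited difference 0.45 ± 0.035 SE, limma adjusted p = 2.6e-09). Cd244a (2B4), a receptor for Cd48, rose by 0.24 ± 0.034 log2 units (limma adjusted p = 5.81e-06). Klra5 and Klra9 rose from no WT read to between 2 and 7 reads per Piezo1cKO library. Cd96, a receptor for Pvr on NK and T cells, fell from 61, 48 and 76 reads to none in any Piezo1cKO library, at least 19.84-fold lower. The list thus held genes that went from reads to none beside genes that went from none to reads.

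Eomes and Tbx21, factors that define the NK lineage, had at most 4 reads in any library. Eomes had no WT read and 1, 2 and 4 Piezo1cKO reads, and Tbx21 (T-bet) had 1 read in WT 2 and none elsewhere. Of 13 such transcription factors and cytokine receptors 7 were tested, of which 2 fell and 5 were not called. Nfil3, a basic leucine zipper factor needed for NK development, fell from 559, 533 and 552 to 335, 325 and 301 reads (deposited difference -0.41 ± 0.037 SE, limma adjusted p = 2.01e-08). Il2rg, the common cytokine receptor chain, fell by 0.16 ± 0.031 log2 units (limma adjusted p = 0.000217).

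Of 18 other cytotoxic effectors 8 were tested, of which 1 rose and 4 fell, a share called of 62.5% beside 63.0% over all genes, and the granzymes Gzmc, Gzmd and Gzme were listed at 0. Cst7 (cystatin F), an inhibitor of the cathepsins that process granzymes, rose from 527, 520 and 498 to 1485, 1583 and 1486 reads (deposited difference 1.05 ± 0.033 SE, limma adjusted p = 3.92e-15). Ctsc, the cathepsin that removes the propeptide of granzymes and of neutrophil serine proteases, fell from 6763, 6202 and 6667 to 2431, 2531 and 2391 reads (-0.99 ± 0.025, limma adjusted p = 1.29e-16). Ccl5 and Ctsw, both known from cytotoxic lymphocytes, fell from 8, 10 and 5 and from 5, 6 and 2 reads to none, and passed the filter through the WT libraries alone. Cst7 thus went the way of Gzma and Gzmb, and Ctsc the opposite way. Of 10 genes for granule transport and fusion, all of them tested, 3 rose and 4 fell, a share of 70% called. Snap23 fell by 0.44 ± 0.03 log2 units (limma adjusted p = 5.73e-10) and Stxbp2 rose by 0.15 ± 0.027 (adjusted p = 0.000128), while Rab27a, at -0.02 ± 0.024, was not called.

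Of 13 receptors with a row that were listed as partners of the adaptors in myeloid cells, 10 were tested, of which 5 rose and 2 fell, 70% called. The pairing of each listed receptor was not checked. Their summed normalized reads ranged from 6972 to 7081 over the WT libraries and from 9805 to 10385 over the Piezo1cKO libraries, and 4 of the 13 had at most 3 reads in every library. Cd300ld rose from 43, 39 and 40 to 371, 316 and 305 reads (deposited difference 1.19 ± 0.046 SE, limma adjusted p = 1.04e-13). Cd300lb, an activating receptor that pairs with Tyrobp, rose from 5027, 4832 and 4998 to 7800, 8009 and 7538 reads (0.51 ± 0.023, limma adjusted p = 8.78e-13). Clec5a rose by 0.2 ± 0.04 log2 units, and Trem3 and Pilrb1 fell by 0.26 ± 0.032 and 0.36 ± 0.047. Trem1 and Trem2 were not called, at 0.01 ± 0.04 and 0.03 ± 0.027. In TPM, Cd300lb stood at 365.6 in WT and 601.8 in Piezo1cKO LSCs.

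Downstream of the adaptors, 12 of 19 signaling genes rose and 3 fell, with a median difference of 0.13 log2 units beside 0 over all genes. Zap70, the kinase that T and NK cells use beside Syk, went from 0, 1 and 0 reads to 56, 46 and 70 (deposited difference 0.42 ± 0.035 SE), and passed the filter through the Piezo1cKO libraries alone. Syk, the kinase of myeloid cells, was not called, at -0.03 ± 0.028. Lat2, a transmembrane scaffold of myeloid and B cells, rose from 2888, 2841 and 2983 to 4835, 5205 and 4957 reads (0.6 ± 0.024, limma adjusted p = 1.31e-13). Lcp2 (SLP-76), the scaffold that joins these kinases to phospholipase C, fell from 2294, 2193 and 2157 to 1213, 1281 and 1134 reads (-0.57 ± 0.032, limma adjusted p = 3.18e-11). Pik3r1, the regulatory subunit that the YINM motif of Hcst recruits, rose by 0.49 ± 0.027 log2 units, Btk by 0.31 ± 0.025 and Fcer1g, an ITAM adaptor related to Tyrobp, by 0.26 ± 0.026.

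Ligands of NK receptors were also read in these cells. Of 12 ligand genes with a row, 11 were tested, of which 6 rose and 1 fell, 63.6% called. Pvr, a ligand of Cd226, Tigit and Cd96, rose from 639, 668 and 708 to 973, 1039 and 1035 reads (deposited difference 0.41 ± 0.034 SE, limma adjusted p = 6.22e-09). Nectin2 rose by 0.37 ± 0.04 log2 units and H2-T23 (Qa-1), which Klrd1 heterodimers recognize, by 0.21 ± 0.038. Clec2f, which GENCODE annotates as a transcribed pseudogene, fell from 48, 42 and 52 to 4, 6 and 4 reads, and Clec2i rose by 0.14 ± 0.039. The NKG2D ligands Raet1a, Raet1b, Raet1c and H60a had no row and were not analysed here. Other NKG2D ligands were among the 11 tested, with differences from -0.04 to 0.05 log2 units.

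**Figure D3:**
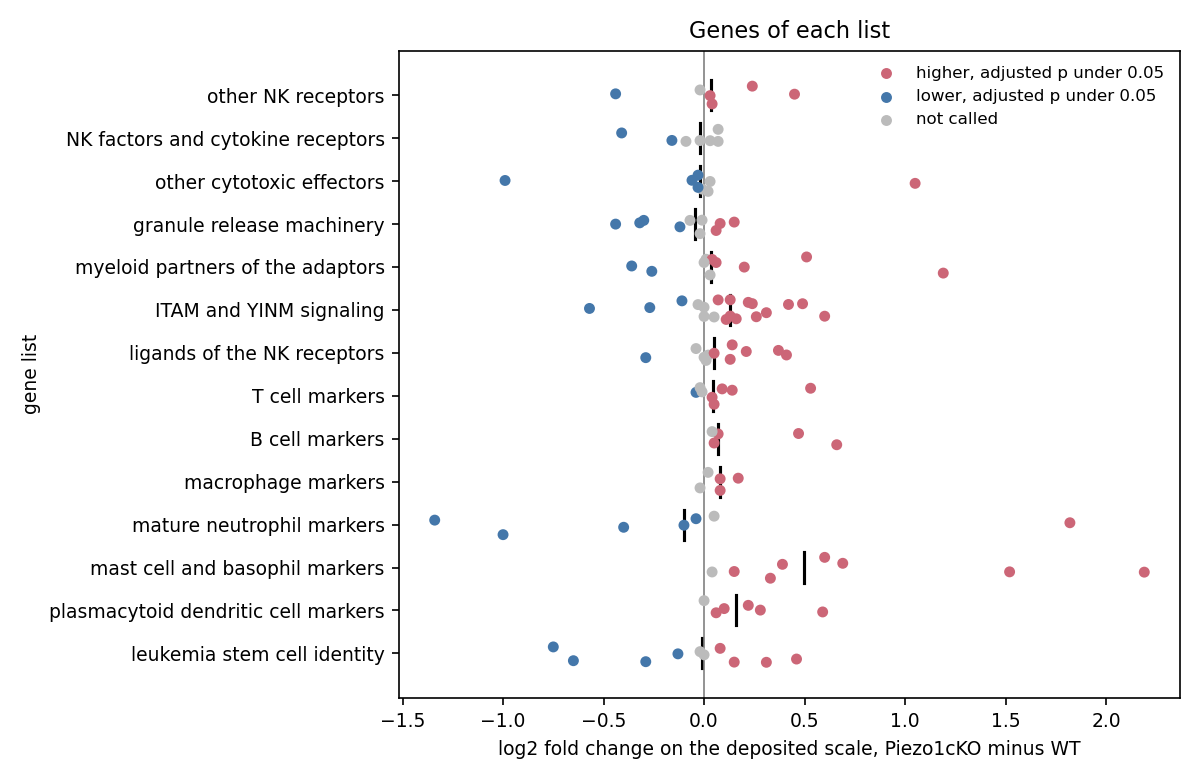
Deposited log2 fold change (horizontal axis, Piezo1cKO minus WT) of each tested gene of 14 gene lists (vertical axis), with red points for genes higher and blue points for genes lower at adjusted p under 0.05 (limma), grey points for genes not called and black bars for list medians. Most lists hold red and blue points, and the mast cell and basophil list, with a median of 0.50, has the median furthest to the right.

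Markers of other cell types were read beside the 10 genes, and their part in the results was not tested. Of 16 T cell markers 8 were tested, of which 5 rose and 1 fell, 3 of these 6 having at most 3 reads in every library of 1 group, and their summed normalized reads ranged from 87.6 to 116 over the WT libraries and from 199.8 to 289 over the Piezo1cKO libraries. The CD3 chains that define T cells had few reads: Cd3e had 1 read in all, in WT 1, Cd3g had 3, 2 and 2 WT reads and no Piezo1cKO read, and Cd3d had 7, 5 and 4 against 0, 2 and 0. Il7r rose from 34, 31 and 24 to 124, 109 and 142 reads, Trac from 5, 2 and 2 to 17, 16 and 13, and Cd2 from none to 8, 4 and 8. In the libraries where Klrb1c and the granzymes were read, Ncr1, Klrd1, Prf1, Tbx21, Cd3e and Cd3g had at most 2 reads. In those same libraries Il7r, Trac, Cd2 and Zap70 had more reads than in any WT library. The groups overlapped for Lck after normalization, and 2 of the 8 tested T cell markers were not called. Cd96, Ccl5 and Ctsw, also known from lymphocytes, had no read in any Piezo1cKO library. Eomes had 1, 2 and 4 reads there, and Cd3d had fewer than in WT. Whether lymphocytes were part of the sorted cells was not tested.

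On the deposited scale the mast cell and basophil markers had the highest median difference of the 14 lists, 0.50 log2 units, whereas on recovered reads their median of 1.43 was below those of the macrophage (3.7) and T cell markers (2.11), which held genes at or near 0 in 1 group. Of the 9 mast cell and basophil genes 8 were tested, of which 7 rose and 1 was not called, and their summed normalized reads were 5016 to 5263 in WT and 15853 to 15985 in Piezo1cKO libraries. Cpa3, mast cell carboxypeptidase, rose from 588, 529 and 618 to 4986, 4986 and 4842 reads (deposited difference 2.19 ± 0.032 SE, limma adjusted p = 5.47e-20). Hdc, which makes histamine, rose by 1.52 ± 0.028 log2 units, Prss34 by 0.69 ± 0.027, the transcription factor Gata2 by 0.6 ± 0.031 and the basophil protease Mcpt8 by 0.39 ± 0.038. The genes named here had 93 or more reads in every WT library, where Klrb1c and Gzmb had none. Another of the 7 that rose had at most 3 reads in every WT library and passed the filter through the Piezo1cKO libraries alone.

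Of 5 macrophage markers tested 3 rose and 2 were not called. The 3 that rose, C1qb, C1qc and Mrc1, had at most 3 reads in each WT library and passed the filter through the Piezo1cKO libraries alone, with C1qc from no read to 21, 29 and 15, while C1qa was listed at 0 and the summed reads were 911 to 988 in WT and 935 to 1058 in Piezo1cKO libraries. Of 5 B cell markers 4 rose, led by Ighm (0.66 ± 0.018) and Cd79b (0.47 ± 0.03), with sums of 12229 to 12594 against 22358 to 22739 reads. Among the 4, Ebf1 had 0, 2 and 0 WT reads and passed the filter through the Piezo1cKO libraries alone. Of 6 plasmacytoid dendritic cell markers 5 rose, with Siglech at 0, 1 and 0 against 8, 6 and 9 reads and sums of 6591 to 6911 against 8839 to 9315. Most of these sums came from Irf8, with means of 5185 in WT and 6385 in Piezo1cKO, and from Tcf4, with 1244 and 2247. Of 7 mature neutrophil markers 1 rose and 5 fell: Mmp8 rose by 1.82 ± 0.038 and S100a9 fell by 1.34 ± 0.038 log2 units, with Ly6g at 1 read in all, Retnlg listed at 0 and sums of 2349 to 2377 against 1873 to 1945. Of 10 genes of the LSC gate and identity 4 rose and 4 fell, among them Cd34 (0.46 ± 0.024), Kit (0.31 ± 0.026), Fcgr2b (-0.75 ± 0.029) and Mpo (-0.65 ± 0.015).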

How the data were processed

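RNA-seq of 3 WT and 3 Piezo1cKO LSC libraries was analysed. The authors trimmed paired-end reads of a Smart-seq2-based library with fastp (0.20.1), mapped them to GRCm38 with HISAT2 (2.2.1), counted them with featureCounts (2.0.1) and normalized them with DESeq2 (1.28.1). The deposited log2 values look like a regularized log transform of counts, which the sources used here do not name. All 6 columns were used (0 left out). Reads were recovered by inverting that transform: 93.8% of the values of genes with a mean of 1 to 1000 reads came out within 0.1 of a whole number, against 36.3% above 1000, where reads such as those of Tyrobp and Nkg7 are rounded. The inversion and the tests were tested on simulated data. Groups were compared with limma (3.58.1, R 4.3.3) on the deposited values of genes with a mean of at least 1, with Benjamini-Hochberg adjustment over all 16746 genes. A gene was called at adjusted p under 0.05. On recovered reads limma-voom was run on genes with at least 10 reads in all. Normalized reads are reads divided by a size factor, TPM uses exon lengths of GENCODE M21, and promoters are from RefSeq. The counting interval has a level of 95%, and a floor of 3 reads stands for a count of 0. The members and gene lists were chosen with earlier results of these data known. All members were named; other names were taken from Piezo1, neighbours within 50 kb and, in each list, the first 3 genes and the 5 largest called differences, of which some are given by counts only. Alternatives were other filters and scalings, a replicate block, each library left out, recovered reads and a test against a 2-fold change.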

Additional observations from a re-analysis of the deposited data

How the results depend on the processing

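None of the 7 tested members changed direction under any alternative run. For Klrb1c, Gzma and Gzmb, which passed the filter through the Piezo1cKO libraries alone, the direction could not change. With a mean of at least 5 on the deposited scale 4 members were tested and called, and the others were under the filter. In that fit 7635 genes in all were called, and nothing particular to the members is read from these counts. Against a 2-fold change, 0 members were called (limma's treat), each difference being under 1 log2 unit, and 91 genes in all were called and past the thresholds. Of the members, 4 were past both thresholds on recovered reads with size factors or with library totals. With a mean of at least 50 reads 1 member was, and 4 were called beside 7250 genes in all. Over all genes 4321, 4333 and 907 were past both thresholds in these 3 fits, beside 137 on the deposited scale. Leaving out the 3 libraries with the most single-read genes (WT 1, WT 2 and Piezo1cKO 2), a choice made after the data were seen, left 1 WT library, assumed to vary like the others. Then 2 members, Klrk1 and Nkg7, and 2918 genes were called. Klrb1c, Gzma and Gzmb kept differences of 0.32, 0.07 and 0.18, and Hcst stood at 0.05. Of 86 called genes of the other lists, 86 had the same direction in that fit, which was drawn from the same libraries. Those with at most 3 reads in every library of 1 group had to keep it. Same-numbered libraries correlated at 0.195, 0.161 and 0.07, and each library correlated best with its own number, as a hint from the data only; nothing ties them by design. With the replicate number as a block 7 members and 11055 genes were called, beside 7 and 10556 without it. The depth does not allow a gene with under 3 reads to be told from an absent one.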
